A study of Homo sapiens with 2 samples.

Results

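Levels of 8 genes of cholesterol metabolism were compared in colon organoids with and without inflammatory cytokines: HMGCS1, IDI1, FDFT1, SQLE, LSS and DHCR7, which are enzymes of cholesterol synthesis, INSIG1, a regulator of that synthesis, and CH25H, which makes an oxysterol. They were chosen with earlier results of these data known, and all 8 symbols were found among the 36601 genes of the count tables. The study sequenced RNA of single cells from organoids that were differentiated from the human iPS cell line 1383D6 (induced pluripotent cells, an established line), and its title presents the organoids as a model of ulcerative colitis. One library came from organoids without cytokines (CNT) and the other from organoids kept for 8 days with 3 cytokines (3CK), namely IL-1β, TNF-α and IFN-γ. Organoids of both groups came from 1 cell line and 1 protocol: Activin A, then FGF2, embedding in Matrigel, and a colonic step with EGF, forskolin, PD98059, 5-Aza-2'-Deoxycytidine and further factors. The labels name 1 library per group, so no difference below has a replicate check and no test across samples was possible.

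Cholesterol is built from acetyl-CoA in a chain of enzymes. The chain passes through mevalonate and isoprenoid units to squalene, which is oxidised, closed into the first sterol and then trimmed to cholesterol. Most genes of the chain are switched on by SREBP transcription factors, which SCAP escorts out of the endoplasmic reticulum when sterols are scarce. INSIG proteins hold SCAP back when sterols are plentiful, and INSIG1 is itself an SREBP target. The gut epithelium and the liver are both tissues with high cholesterol synthesis.

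Values are given as CPM: unique molecular identifiers (UMIs, 1 per captured transcript molecule) of a gene, summed over the cells of a group, per 1000000 UMIs of those cells. Epithelial cells had at least 2 EPCAM UMIs per 10000. Mesenchymal cells had at least 5 UMIs per 10000 of COL1A1, COL1A2 and COL3A1 together and under 1 of EPCAM. There were 1660 CNT and 1016 3CK epithelial cells, with 76172762 and 70107004 UMIs in sum. Mesenchymal cells numbered 574 in CNT, with 19648485 UMIs, and 124 in 3CK, with 9115881 UMIs. Cells of 3CK were deeper: the median was 72198 UMIs against 37785 in epithelial cells, and 65363 against 23450.5 in mesenchymal cells. No barcode was shared between the libraries. All intervals are 95% intervals of counting error and hold no variation between cultures. Those of levels and ratios count UMIs summed over cells, so they hold no variation between cells either. With 3' capture, a level is a number of molecules and needs no correction for gene length, although capture may differ between genes.

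The labelled tissue was checked on transcripts chosen after the data were seen. In the epithelial cells the intestinal transcription factor CDX2 stood at 80.6 CPM in CNT against 83.3 CPM in 3CK, and the intestinal cadherin CDH17 at 302 and 183 CPM. The intestinal transcripts CDX1 and VIL1 were at 14.9 and 130 CPM in CNT against 13.4 and 29.3 CPM in 3CK. The goblet cell mucin MUC2 was at 1.04 and 0.642 CPM. Hepatic transcripts were far more abundant: the 8 markers of that list, among them TTR, APOA1, APOA2 and AFP, summed to 99229 CPM in CNT against 32979 CPM in 3CK. Each of the 8 was lower in 3CK, as were 49.4% of the 16809 genes that reached 1 CPM in one library or both.

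The upstream sequences of the genes are shown because most of the measured genes differed together between the libraries. RefSeq windows on GRCh38.p14, from 250 bases before to 50 after a transcription start, were found for 6 of the 8 genes. In the GENCODE 44 annotation of that build, HMGCS1 spans chr5:43287470-43313512, IDI1 chr10:1039152-1049119, LSS chr21:46188141-46228824, DHCR7 chr11:71428193-71452868, INSIG1 chr7:155297776-155310235 and CH25H chr10:89205629-89207317. Exon-free upstream stretches are printed 5′ to 3′ on the gene's strand. Capitals mark the CCAAT box, read as CCAAT or as its reverse complement ATTGG, the motif of the factor NF-Y, which is known to work with SREBP at sterol-regulated promoters.
HMGCS1 (chr5:43313513-43313662, minus strand): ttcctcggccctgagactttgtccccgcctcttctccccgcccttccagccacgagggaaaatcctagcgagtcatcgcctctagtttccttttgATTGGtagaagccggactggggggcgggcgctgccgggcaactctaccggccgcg
IDI1 (chr10:1049120-1049369, minus strand): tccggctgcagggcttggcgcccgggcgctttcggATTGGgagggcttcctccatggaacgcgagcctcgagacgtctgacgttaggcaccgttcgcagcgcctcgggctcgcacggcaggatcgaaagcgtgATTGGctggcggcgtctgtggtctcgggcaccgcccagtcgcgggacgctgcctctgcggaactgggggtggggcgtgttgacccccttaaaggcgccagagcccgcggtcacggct
LSS (chr21:46228825-46229024, minus strand): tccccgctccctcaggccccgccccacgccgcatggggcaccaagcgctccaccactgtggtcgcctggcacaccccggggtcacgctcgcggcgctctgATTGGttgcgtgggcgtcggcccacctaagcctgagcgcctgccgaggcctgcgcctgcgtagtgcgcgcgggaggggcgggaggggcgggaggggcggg
DHCR7 (chr11:71448436-71448561, minus strand): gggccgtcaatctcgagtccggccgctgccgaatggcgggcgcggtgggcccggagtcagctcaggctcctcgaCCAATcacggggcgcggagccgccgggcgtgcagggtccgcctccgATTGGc
INSIG1 (chr7:155297628-155297775, plus strand): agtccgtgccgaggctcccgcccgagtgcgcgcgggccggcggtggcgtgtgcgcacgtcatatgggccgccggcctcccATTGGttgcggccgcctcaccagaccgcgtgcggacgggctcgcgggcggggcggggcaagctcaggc
CH25H (chr10:89207318-89207567, minus strand): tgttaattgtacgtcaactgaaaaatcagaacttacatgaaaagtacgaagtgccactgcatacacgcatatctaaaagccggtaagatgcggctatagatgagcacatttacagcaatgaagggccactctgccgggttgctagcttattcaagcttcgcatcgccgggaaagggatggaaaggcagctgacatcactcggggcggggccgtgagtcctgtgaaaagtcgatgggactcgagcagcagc

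A CCAAT box on either strand was present in the windows of 5 of the 6 genes (83.3%), CH25H being the one without, against 39.7% of the 27305 genes with a window. Some genes have several starts: of the 10 windows of the 6 genes, 6 held the box (60.0%), against 34.6% of all 35116 windows. HMGCS1 and DHCR7 each have 1 further window without it, and IDI1 has 3 windows of which 2 hold it. The stretches printed for these 3 genes were taken from windows that hold it. Among the 22 synthesis genes described below, 15 of the 18 with a window held one (83.3%). In the printed stretches the box began 155 bases before the start in HMGCS1, 150 in LSS and 170 in INSIG1. IDI1 held 2 boxes, at 215 and 117 bases before the start, and DHCR7 also held 2, at 94 and 48 bases. The GC box GGGCGG was in the windows of all 6 genes and of 48.3% of all genes. The E-box CACGTG was in 2 of the 6 and in 8.77% of all. The sterol regulatory element searched as TCACNCCAC was in none of the 10 windows of the 6 genes. It was in a window of 1.39% of all genes. This says only that these letters are not in these windows. All 4 motifs were searched on both strands, and none of these matches was tested for binding.

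The first question was how the 8 genes differed between cytokine-treated and untreated organoids in epithelial cells. All 6 synthesis enzymes were lower in 3CK, with a median log2 ratio of 3CK to CNT of -1.24, a level 2.37-fold lower. Their summed level was 396.5 CPM in CNT against 178.2 CPM in 3CK.

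HMGCS1, the synthase that makes HMG-CoA at the entry to the pathway, stood at 106 CPM in CNT (8104 UMIs, interval 104 to 109) and at 49.7 CPM in 3CK (3481 UMIs, 48.0 to 51.3). Its log2 ratio was -1.10 (interval -1.16 to -1.04). IDI1, which interconverts the isoprenoid units, had 104 CPM in CNT against 39.9 CPM in 3CK, a log2 ratio of -1.39 (-1.45 to -1.32). The entry enzyme and the isomerase were thus the highest of the set in CNT, at levels whose counting intervals overlapped.

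FDFT1, squalene synthase and the first enzyme committed to sterols, was at 71.5 CPM in CNT against 46.8 CPM in 3CK. Its log2 ratio of -0.61 (-0.67 to -0.55) was the smallest difference of the 6. SQLE, the epoxidase that oxidises squalene in a rate-limiting step, was at 53.1 CPM in CNT against 18.3 CPM in 3CK, a log2 ratio of -1.54 (-1.63 to -1.45). These neighbours in the pathway therefore differed from each other in size of difference, FDFT1 keeping 65.4% of its CNT level and SQLE 34.4%.

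LSS, which closes oxidised squalene into lanosterol, was at 21.9 CPM in CNT against 11.7 CPM in 3CK, a log2 ratio of -0.90 (-1.02 to -0.78). DHCR7, the reductase of the last step, was at 39.4 CPM in CNT (2998 UMIs) and 11.8 CPM in 3CK (829 UMIs). Its log2 ratio of -1.73 (-1.85 to -1.62) was the largest difference of the 6 and left 30.0% of the CNT level. In 3CK the levels of DHCR7 and LSS had overlapping counting intervals, whereas in CNT DHCR7 was the higher.

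INSIG1, which retains SCAP in the endoplasmic reticulum, was at 13.4 CPM in CNT (1019 UMIs) and 4.71 CPM in 3CK (330 UMIs). Its log2 ratio was -1.51 (-1.69 to -1.33), between those of SQLE and IDI1. It was the lowest of the 7 measured genes in both libraries.

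These ratios are relative to all UMIs of the cells, and the 3CK cells held more UMIs. As UMIs per epithelial cell, HMGCS1 went from 4.88 in CNT to 3.43 in 3CK, SQLE from 2.44 to 1.26 and DHCR7 from 1.81 to 0.816. FDFT1 was at 3.28 UMIs per cell in CNT and 3.23 in 3CK, so that its lower CPM came with almost equal UMIs per cell.

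**Figure D1:**
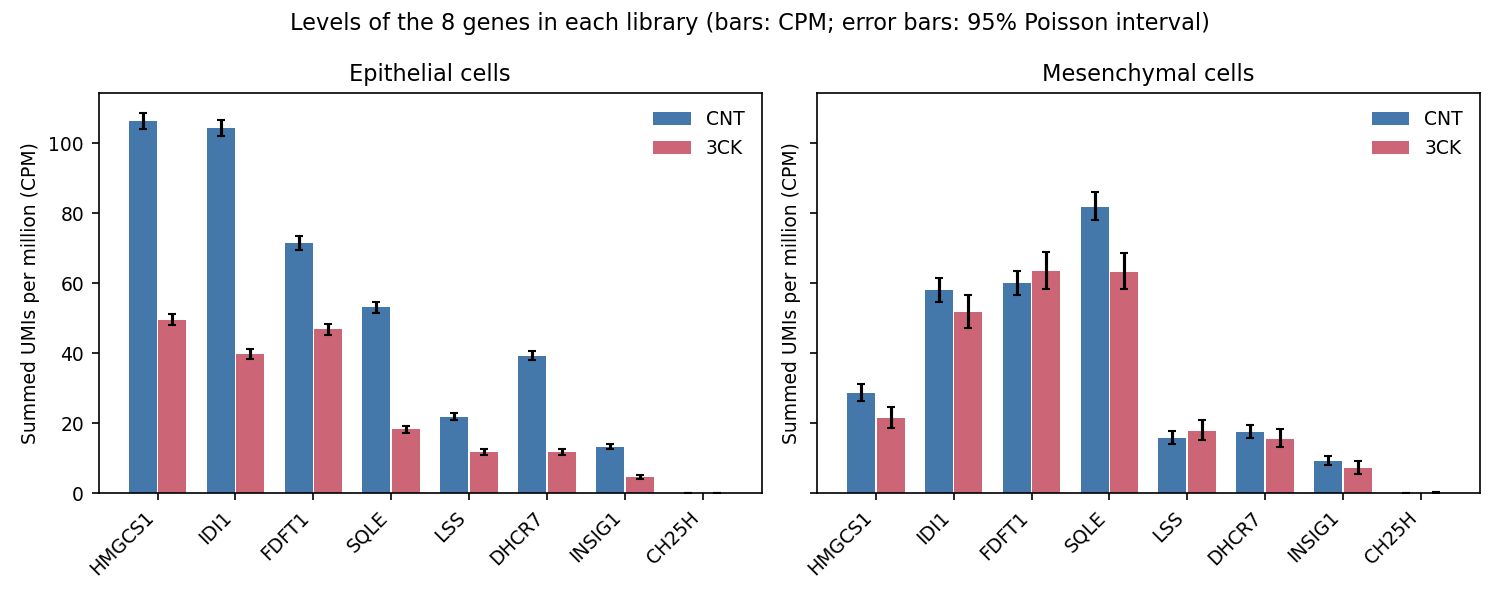
Level of each of the 8 genes (vertical axis, CPM) in epithelial cells (left) and mesenchymal cells (right). Blue bars are the CNT library, red bars the 3CK library, and error bars the 95% Poisson interval; in epithelial cells every measured gene except CH25H is lower in 3CK, while in mesenchymal cells the intervals of IDI1, FDFT1, LSS, DHCR7 and INSIG1 overlap between the libraries.

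CH25H, the enzyme that makes an oxysterol able to block SREBP processing and known as an interferon-induced gene in immune cells, was close to the limit of detection. No UMI was found in the 1660 epithelial cells of CNT, which allows a share of up to 0.181% of cells with a UMI. In 3CK, 4 UMIs were found in 3 of the 1016 epithelial cells, or 0.0571 CPM. Mesenchymal cells held none in either library, which allows up to 0.523% of the 574 CNT cells and 2.42% of the 124 3CK cells. A difference in CH25H was therefore not detectable at this depth, and no ratio is given for it.

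Against the whole table, 12.1% of the 16809 genes that reached 1 CPM in one library or both were lower in 3CK by at least 2-fold in epithelial cells, and 8.48% were higher by that much. Of the 7 of these 8 genes that reach 1 CPM, 5 were lower by at least 2-fold (HMGCS1, IDI1, SQLE, DHCR7 and INSIG1) and none was higher. The median log2 ratio of all genes was 0.01, with quartiles of -0.45 and 0.38. DHCR7 had a ratio with 5.44% of genes below it, SQLE 6.62%, INSIG1 6.88%, IDI1 7.95% and HMGCS1 10.8%. LSS and FDFT1 had 13.6% and 19.7% of genes below them, so the 7 lay on the lower side of the table, where many genes outside this pathway lay too. The genes were chosen with earlier results of these data known, so their place in the table is no independent support.

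**Figure D2:**
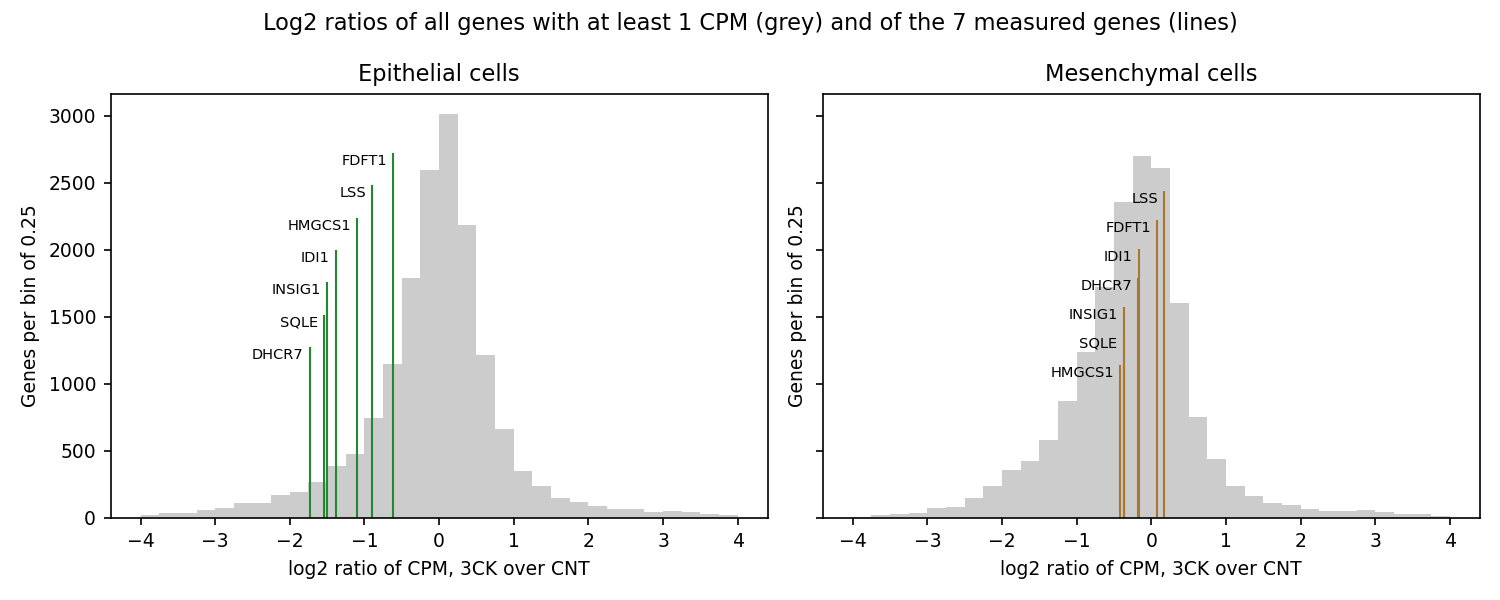
Number of genes (vertical axis) by log2 ratio of CPM, 3CK over CNT (horizontal axis, bins of 0.25), for all genes that reached 1 CPM in epithelial cells (left) and mesenchymal cells (right). Vertical lines mark the 7 measured genes and their heights carry no value; 251 epithelial and 117 mesenchymal genes lie outside the range drawn, and the lines sit between -1.73 and -0.61 in epithelial cells and between -0.42 and 0.18 in mesenchymal cells.

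In mesenchymal cells the same genes differed less between the libraries. The median log2 ratio of the 6 enzymes was -0.17, and their summed level was 262.1 CPM in CNT against 233.4 CPM in 3CK. None of the 7 measured genes was lower or higher by 2-fold, where 16.7% of 17353 genes were lower and 6.05% higher by that much. All genes together had a median of -0.21 there, so the median of the enzymes was close to that of the table.

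HMGCS1 was at 28.7 CPM in CNT (564 UMIs) and 21.5 CPM in 3CK (196 UMIs) in mesenchymal cells, a log2 ratio of -0.42 (-0.66 to -0.18). SQLE was at 81.9 CPM in CNT against 63.3 CPM in 3CK, a log2 ratio of -0.37 (-0.51 to -0.23). IDI1 was at 58.1 and 51.7 CPM, a log2 ratio of -0.17 (-0.33 to -0.01). The intervals of these 3 genes of the 7 lay below 0, as did those of 38.6% of all genes, although that of IDI1 only just, and its sign turned when libraries were scaled by TMM factors, a trimmed mean over genes (0.011), or by median-of-ratios factors (0.027). With median-of-ratios factors the interval of HMGCS1 held 0 as well (-0.22, interval -0.46 to 0.02), which left SQLE as the one enzyme below 0.

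FDFT1 was at 60.0 CPM in CNT against 63.5 CPM in 3CK, a log2 ratio of 0.08 (-0.06 to 0.23). LSS was at 15.8 and 17.9 CPM, a log2 ratio of 0.18 (-0.11 to 0.45). DHCR7 was at 17.6 and 15.6 CPM, a log2 ratio of -0.17 (-0.47 to 0.11), with 345 UMIs in CNT and 142 in 3CK. INSIG1 was at 9.36 and 7.24 CPM, a log2 ratio of -0.37 (-0.80 to 0.04), from 184 and 66 UMIs. The intervals of these 4 genes held 0 at the scaling by total UMIs. With TMM factors FDFT1 (0.26, interval 0.12 to 0.41) and LSS (0.36, interval 0.07 to 0.63) lay above 0, as they did with median-of-ratios factors. The sign of DHCR7 turned with TMM factors (0.0064) and median-of-ratios factors (0.023). In mesenchymal cells of 50000 to 100000 UMIs, DHCR7 was at -0.98 (-1.57 to -0.43) and INSIG1 at -0.76 (-1.51 to -0.08), so the call for each of these 4 genes depended on the setting.

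For all 7 measured genes, the interval of the epithelial log2 ratio lay wholly below that of the mesenchymal one. How many of all genes show such a gap was not counted, so it cannot be called particular to these 7. The gap compares the counting error of 1 library pair in each cell group, and the difference between the cell groups was not tested across replicates. Scaling moved every mesenchymal log2 ratio by 0.18 with TMM factors and 0.20 with median-of-ratios factors, and the epithelial ones by 0.03.

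The order of the genes by level changed with cell group and library. In CNT, epithelial cells were led by HMGCS1 and IDI1 and mesenchymal cells by SQLE, followed by FDFT1 and IDI1. The CNT mesenchymal level was 27.0% of the epithelial one for HMGCS1, 44.6% for DHCR7, 55.7% for IDI1, 70.0% for INSIG1, 72.2% for LSS and 83.9% for FDFT1, while SQLE stood at 154%. In 3CK the comparison turned for 5 of them: the mesenchymal level was 154% of the epithelial one for INSIG1, 152% for LSS, 136% for FDFT1, 132% for DHCR7 and 130% for IDI1. SQLE was higher in mesenchymal cells of both libraries, at 346% in 3CK. HMGCS1, at 43.3%, was the one of the 7 that was lower in mesenchymal cells of both libraries. TTR in mesenchymal cells was at 2.17% of its epithelial level in CNT and 1.22% in 3CK. RNA shared between cells was not estimated, and its part in these levels was not tested.

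The makeup of the cell groups differed between the libraries in other ways. Of the 8 mesenchymal markers in mesenchymal cells, 5 had an interval below 0, 1 above and 2 holding 0, with a median log2 ratio of -1.19. Of all genes there, 38.6% had an interval below 0 and 20.3% above. The 3 collagens that define the group were among the lower ones, such as COL1A1 at 3010 CPM in CNT against 906 CPM in 3CK, while VIM was higher (0.28) and DCN was at 0.00. The 6 cycling markers summed to 214 and 327 CPM. Of the 8 leukocyte markers, 6 reached 1 CPM in mesenchymal cells. Of these 6, 5 were higher in 3CK by at least 2-fold, as were 6.05% of all genes there. The 8 summed to 70.3 CPM in CNT and 222 CPM in 3CK, with TYROBP at 27.1 and 87.9 CPM, PTPRC at 0.56 and 3.62 CPM and CSF1R and LYZ under 1 CPM in both. Without the cells that carried PTPRC, TYROBP, FCER1G or AIF1 at 1 UMI per 10000 or more, the median of the 6 enzymes in mesenchymal cells was -0.05. In epithelial cells the leukocyte markers summed to 104 CPM in CNT against 117 CPM in 3CK, the mesenchymal markers to 1568 and 840 CPM, and the stress markers to 278 and 410 CPM. Of the 8 stress markers 4 had an interval below 0 and 4 above, near the 39.5% and 39.8% of all epithelial genes. Their median log2 ratio was -0.05, and the higher ones included ATF3 (35.6 and 142 CPM) and DDIT3 (26.2 and 67.0 CPM). Hepatic markers in mesenchymal cells summed to 2402 and 479 CPM. The 7 epithelial markers in epithelial cells summed to 11511 CPM in CNT and 22120 CPM in 3CK, with 5 intervals above 0 and 2 below. Of these markers, KRT8 and KRT18 were also abundant in mesenchymal cells. There they were at 3217 and 4930 CPM in CNT, where epithelial cells had 3111 and 4303 CPM. The part of these differences in the results was not tested, and the ranges of cells that follow are descriptive.

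Epithelial cells were described further by their hepatic transcript TTR, because 64.3% of CNT epithelial cells but 17.6% of 3CK epithelial cells had at least 300 TTR UMIs per 10000. Within that range the summed enzymes were at 408.8 CPM in CNT (1067 cells) and 207.4 CPM in 3CK (179 cells), a log2 ratio of -0.98 (-1.03 to -0.92). Between 30 and 300 they were at 375.5 CPM (530 cells) and 171.2 CPM (653 cells), a log2 ratio of -1.13 (-1.18 to -1.08). Under 30 they were at 326.0 CPM (63 cells) and 168.5 CPM (184 cells), a log2 ratio of -0.95 (-1.05 to -0.86). The summed enzymes were lower in 3CK in each range of TTR. The ranges did not match the level of TTR itself. Its log2 ratio was -0.65 at or over 300, -0.31 between 30 and 300 and 0.12 under 30.

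Single genes differed more between these ranges. HMGCS1 in the cells with TTR under 30 was at 51.0 CPM in CNT against 47.1 CPM in 3CK, a log2 ratio of -0.12 (-0.34 to 0.11), compared with -1.02 in the cells with TTR at or over 300. FDFT1 showed the opposite, with 112 CPM in CNT against 46.3 CPM in 3CK under 30, a log2 ratio of -1.27 (-1.45 to -1.10), compared with -0.46 at or over 300. The other 4 enzymes and INSIG1 were lower in 3CK in all 3 ranges, with LSS closest to 0 at -0.43 (-0.80 to -0.05) under 30. The CNT values under 30 rest on 63 cells of 1 library.

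Epithelial cells with at least 3 UMIs per 10000 of the 6 cycling markers (124 CNT and 67 3CK cells) had the summed enzymes at 303.4 CPM in CNT against 202.6 CPM in 3CK, a log2 ratio of -0.58 (-0.72 to -0.45). In the other epithelial cells it was -1.18 (-1.21 to -1.15). The cycling range was shallow, with a median of 2362.5 UMIs in CNT and 6999 in 3CK, so that a single marker UMI could place a cell in it. By depth, the log2 ratio of the summed enzymes was -1.15 in epithelial cells of 10000 to 50000 UMIs. It was -1.05 at 50000 to 100000 and -0.97 above 100000. The level itself was lowest in the deepest cells, at 301.0 CPM in CNT against 153.9 CPM in 3CK.

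**Figure D3:**
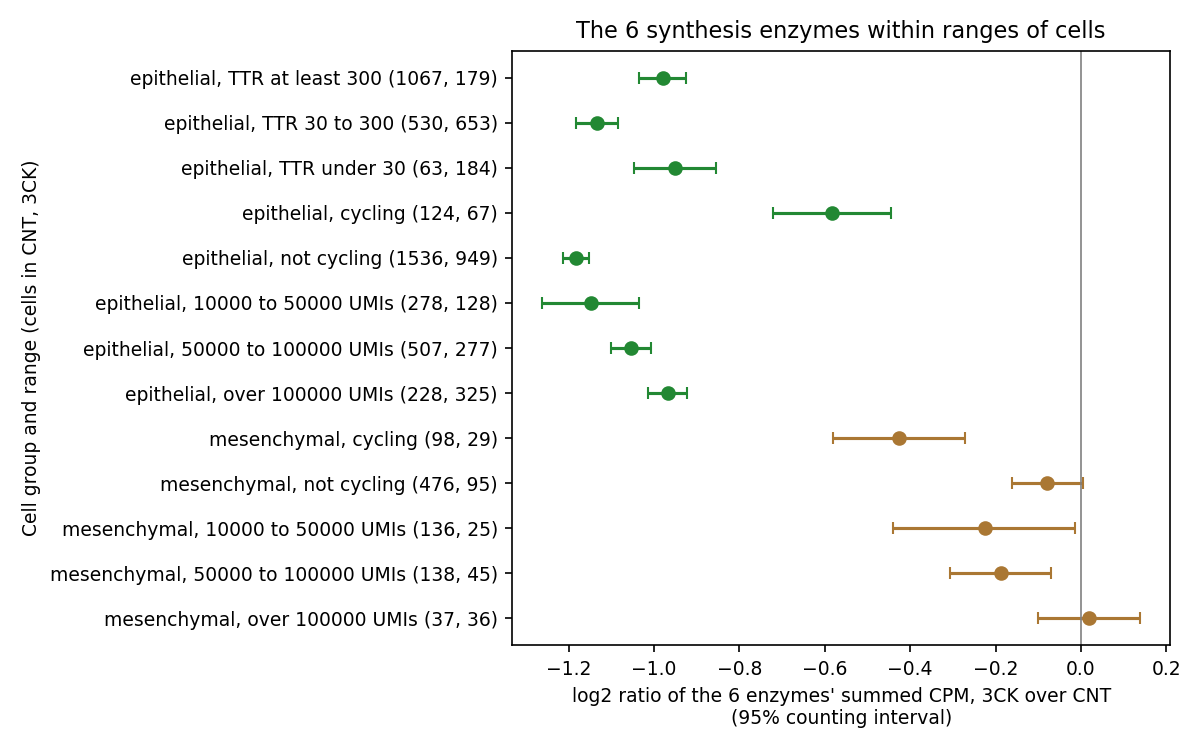
Log2 ratio of the summed CPM of the 6 enzymes, 3CK over CNT (horizontal axis), in ranges of epithelial (green) and mesenchymal (brown) cells by TTR UMIs per 10000, cycling markers and depth, with the number of CNT and 3CK cells in brackets. Points are values, bars 95% counting intervals; all 8 epithelial ranges lie between -1.18 and -0.58, while the mesenchymal ranges lie between -0.43 and 0.02.

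Mesenchymal ranges were closer to 0. The summed enzymes had a log2 ratio of -0.43 (-0.58 to -0.27) in cycling mesenchymal cells (98 CNT and 29 3CK cells) and -0.08 (-0.16 to 0.01) in the others. By depth it was -0.22 from 10000 to 50000 UMIs, -0.19 from 50000 to 100000 and 0.02 above 100000, the last with an interval of -0.10 to 0.14.

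Cell by cell, the whole epithelial distribution was lower in 3CK. Among epithelial cells of at least 10000 UMIs, the median was 3.23 enzyme UMIs per 10000 in CNT (1013 cells, quartiles 1.83 and 5.29) and 1.49 in 3CK (730 cells, quartiles 0.967 and 2.21). Of the 3CK cells, 649 (88.9%) lay below the CNT median. The upper tail was shorter too, with the 95th percentile at 11.4 in CNT and 5.02 in 3CK. In mesenchymal cells the medians were 2.34 in CNT (311 cells) and 2.00 in 3CK (106 cells). There 68 of the 3CK cells (64.2%) lay below the CNT median, and the 95th percentile was 6.09 in CNT and 4.58 in 3CK.

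**Figure D4:**
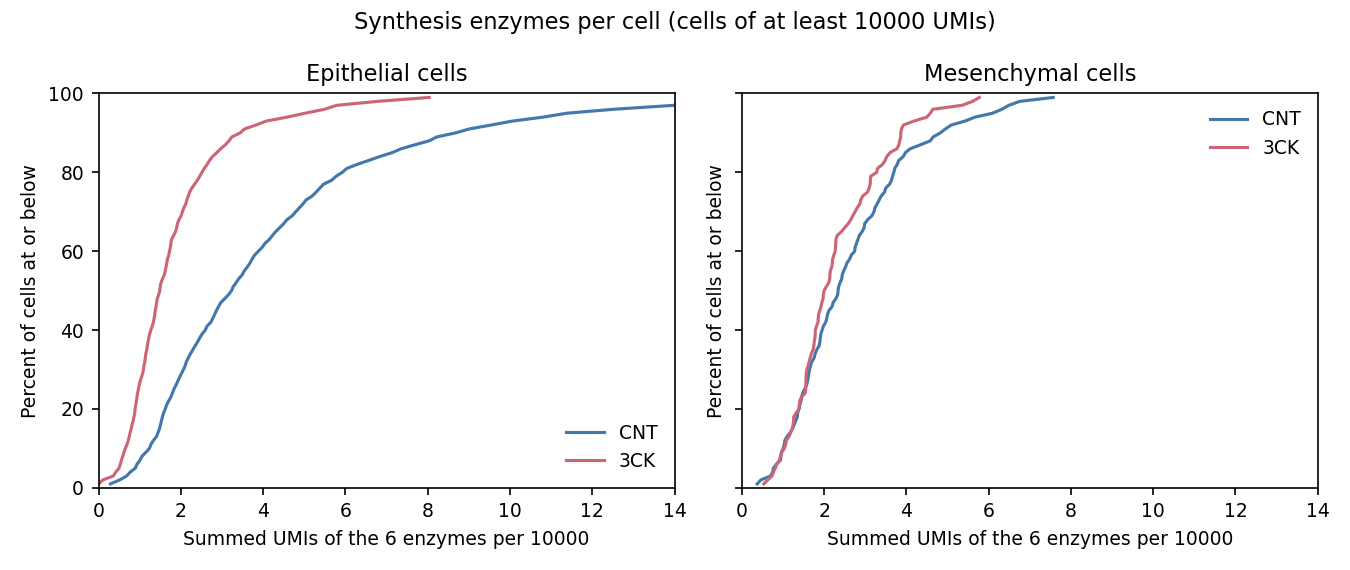
Percent of cells (vertical axis) at or below a given number of summed UMIs of the 6 enzymes per 10000 UMIs (horizontal axis) in epithelial cells (left) and mesenchymal cells (right) of at least 10000 UMIs, CNT in blue and 3CK in red. The epithelial curves are apart over their whole length, with medians of 3.23 and 1.49, and the mesenchymal curves lie closer, with medians of 2.34 and 2.00 and 3CK lower in the upper part; cells beyond 14 are not drawn.

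After thinning each of these cells to 10000 UMIs, 9.38% of CNT epithelial cells (interval 7.65 to 11.3) and 22.7% of 3CK epithelial cells (19.7 to 26.0) had no UMI of any of the 6 enzymes. Cells with a SQLE UMI made up 35.4% in CNT and 14.7% in 3CK, and those with a DHCR7 UMI 30.1% and 11.6%. Unthinned, the shares were 79.0% and 61.6% for SQLE and 77.9% and 52.1% for DHCR7. Shares for HMGCS1 were 53.4% and 33.2%, for IDI1 54.3% and 32.1%, for FDFT1 44.4% and 33.3%, for LSS 21.7% and 13.7% and for INSIG1 12.1% and 4.79%, all thinned. The shallower cells left out numbered 647 in CNT and 286 in 3CK. In mesenchymal cells, 11.3% of CNT cells and 10.4% of 3CK cells had no enzyme UMI after thinning. These enzymes are expressed broadly, so no cell group here serves as one that should lack them.

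The 7 genes also varied together from cell to cell. Over the 21 pairs, Pearson r of log2(UMIs per 10000 + 1) across 1013 CNT epithelial cells ran from 0.19 (LSS and INSIG1) to 0.59 (IDI1 and SQLE), with a median of 0.40. Across 730 3CK epithelial cells it ran from 0.04 (FDFT1 and LSS) to 0.43 (IDI1 and SQLE), with a median of 0.28. UMIs per epithelial cell were also fewer in 3CK, such as 0.614 in CNT and 0.325 in 3CK for INSIG1. The part of this in the lower r was not tested. Cells of a library share its preparation, and the summed enzymes had an r of -0.03 (CNT) and -0.07 (3CK) with depth. Of 5653 genes ranked by r with the summed enzymes in both libraries, the closest included MSMO1 (0.70 in CNT, 0.52 in 3CK), SCD (0.62, 0.48) and CYP51A1 (0.66, 0.42). MSMO1 and CYP51A1 are further enzymes of cholesterol synthesis, and SCD desaturates fatty acids.

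The other 16 synthesis genes examined were mostly lower in 3CK in epithelial cells as well. Their median log2 ratio was -0.77, and 15 of the 16 had an interval below 0, where 39.5% of all genes had one below 0 and 39.8% one above. By at least 2-fold 6 of the 16 were lower, as were 12.1% of all genes. These genes too were listed with earlier results of these data known. MSMO1, a demethylating enzyme of the late pathway, was at 177 CPM in CNT against 41.2 CPM in 3CK, a log2 ratio of -2.10 (-2.16 to -2.05), the largest difference of the pathway. FDPS, which joins isoprenoid units and has the highest level of these 16, was at 167 and 154 CPM, a log2 ratio of -0.11 (-0.15 to -0.08). GGPS1, which leads away from sterols to protein prenylation, had the one interval that held 0, at -0.03 (-0.13 to 0.07).

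Over the 22 synthesis genes together, 21 had an epithelial interval below 0 and none above, with a median of -0.89 against 0.01 for all genes. In mesenchymal cells 7 of the 22 had an interval below 0, 8 above and 7 holding 0, with a median of 0.00 against -0.21 for all genes. Of all genes there, 38.6% had an interval below 0 and 20.3% one above. With TMM factors the mesenchymal counts were 5 below, 11 above and 6 holding 0, against 28.1% of all genes below and 29.3% above. TM7SF2, a sterol reductase, was at 73.5 CPM in CNT against 25.8 CPM in 3CK in epithelial cells (log2 ratio -1.51), and at 10.3 and 15.4 CPM in mesenchymal cells (0.58).

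**Figure D5:**
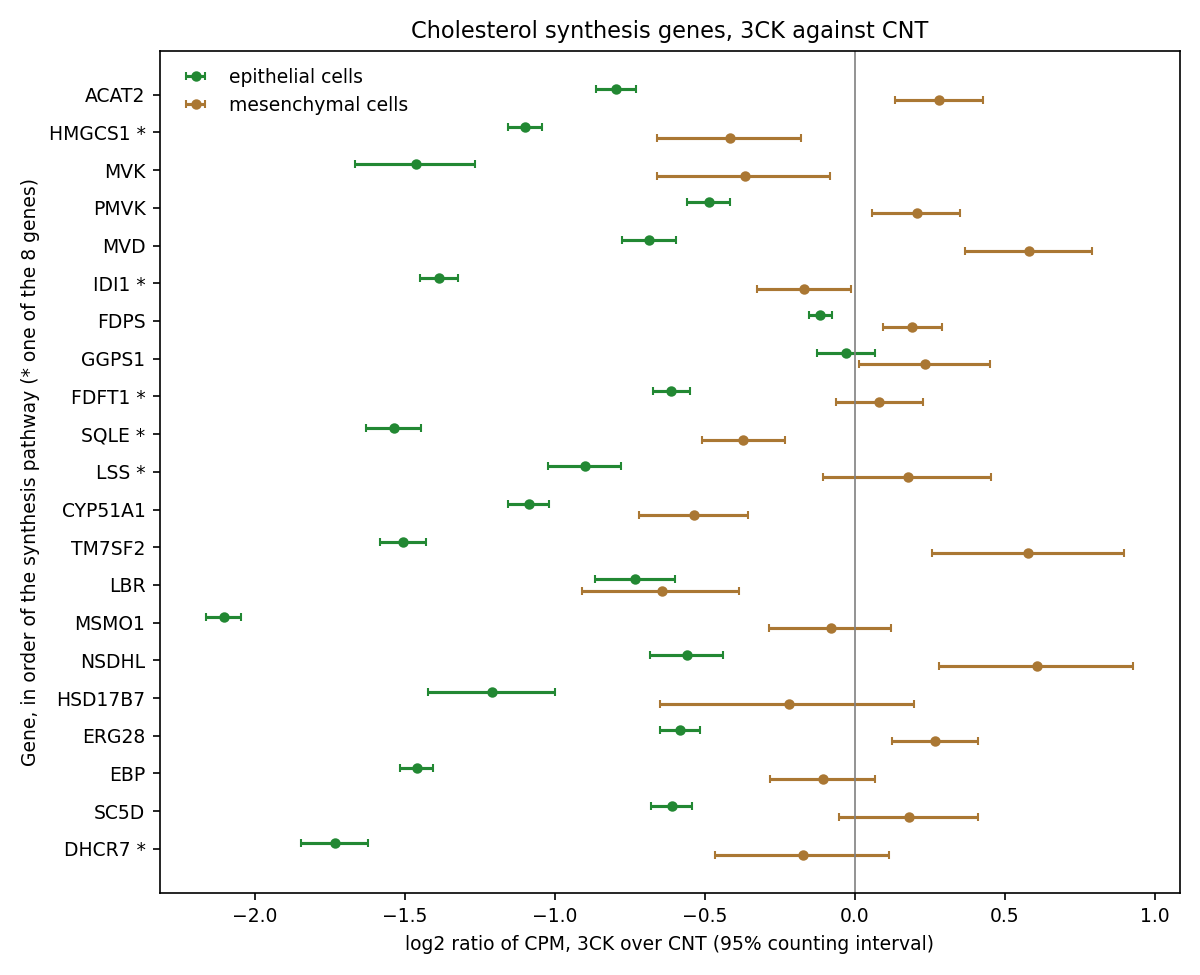
Log2 ratio of CPM, 3CK over CNT (horizontal axis), of 21 of the 22 cholesterol synthesis genes in the order of the pathway (vertical axis; stars mark the 6 enzymes described above) in epithelial (green) and mesenchymal (brown) cells. Points are values and bars 95% counting intervals; the epithelial points run from -2.10 for MSMO1 to -0.03 for GGPS1, and the mesenchymal points scatter around 0.00.

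The genes that sense sterols did not share one direction in epithelial cells: of 10, 5 had an interval below 0, 3 above and 2 holding 0, with a median of -0.12, shares near those of all genes (39.5% below, 39.8% above). SCAP, the escort that INSIG1 holds back, was at 72.5 CPM in CNT against 32.1 CPM in 3CK, a log2 ratio of -1.18 (-1.25 to -1.11). In mesenchymal cells it was also lower (-0.95). SREBF2, the SREBP gene most tied to cholesterol synthesis, was at 42.7 and 30.8 CPM (-0.47). SREBF1, more tied to fatty acid synthesis, was higher in 3CK, at 17.7 and 29.4 CPM (0.73, interval 0.63 to 0.83). INSIG2, the paralog of INSIG1, was at 13.0 and 11.6 CPM (-0.16), so the 2 INSIG genes were at like levels in CNT and apart in 3CK. AUP1, a partner in sterol-driven protein breakdown with the highest level of this list, was at 115 and 86.1 CPM (-0.42).

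Of 12 genes of lipoprotein uptake and cholesterol release from lysosomes, 7 had an epithelial interval below 0, 2 above and 3 holding 0, with a median of -0.42, where 39.5% of all genes were below and 39.8% above. MYLIP, a ubiquitin ligase for lipoprotein receptors, was at 20.3 CPM in CNT against 7.00 CPM in 3CK (-1.54, interval -1.69 to -1.39). LRP8, a receptor of that family, was higher at a low level, 1.69 against 3.48 CPM (1.04, interval 0.73 to 1.36). NPC2, which hands cholesterol on within lysosomes, was at 311 and 226 CPM (-0.46).

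Of 15 genes of cholesterol efflux, storage and oxysterol handling, 11 reached 1 CPM in epithelial cells, and 7 of these had an interval below 0, 3 above and 1 holding 0, with a median of -0.17 against 0.01 for all genes and the same background of 39.5% below and 39.8% above. ABCA1, the exporter of cholesterol to apolipoproteins, was at 150 CPM in CNT against 81.3 CPM in 3CK (-0.88, interval -0.93 to -0.83). SOAT2, which esterifies cholesterol in gut and liver, was at 10.6 and 1.06 CPM (-3.33, interval -3.69 to -2.99). HSD3B7, an enzyme of bile acid synthesis that also clears the oxysterols made after CH25H, was higher, at 14.1 and 29.9 CPM (1.09, interval 0.98 to 1.19).

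Among 8 genes of fatty acid synthesis, which also answer to SREBP, the epithelial median was -1.16, with 6 intervals below 0, 1 above and 1 holding 0, and 4 genes lower by at least 2-fold, where 39.5% of all genes had an interval below 0 and 12.1% were lower by 2-fold. FADS2 and FADS1, desaturases, had log2 ratios of -2.13 and -1.97, SCD had -1.68 and FASN, the fatty acid synthase, -1.44. ACLY, which supplies acetyl-CoA and had the highest level of the list, was at 62.4 CPM in CNT against 52.2 CPM in 3CK (-0.26), and ACSL3, which activates fatty acids, was at 50.5 and 57.5 CPM (0.19). ACACA, the carboxylase of the first step, was at 24.6 and 25.3 CPM (0.04), its interval holding 0. In mesenchymal cells the median of this list was -0.27, against -0.21 for all genes. There 5 of the 8 had an interval below 0, 0 above and 3 holding 0, where 38.6% of all genes were below and 20.3% above. SCD was at -1.09, ACACA at -0.85 and FASN at -0.81. With TMM factors the intervals of these 3 stayed below 0 (-0.91, -0.67 and -0.64), while those of FADS2 and ACSL3 held 0.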

How the data were processed

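Single-cell libraries of human colon organoids, 1 of CNT and 1 of 3CK, were analysed. Each deposited matrix gives raw UMI counts of every gene in every barcode. Per the file headers it was made by Cell Ranger 7.1.0, on GRCh38 per the submitters' processing notes. The gene annotation is not given in the sources used here. The 8 genes, the gene lists and the cell groups were chosen with earlier results of these data known.

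CNT had 3257 barcodes with 105314879 UMIs and 3CK had 1641 with 94887438. Barcodes with at least 500 genes and at most 20% mitochondrial UMIs were kept, which removed 412 and 306 in CNT and 52 and 175 in 3CK. Doublets were scored with Scrublet in scanpy 1.11.5, and the highest scores, at 0.8% per 1000 barcodes, were removed (52 in CNT, 16 in 3CK). This left 2487 CNT and 1398 3CK cells. Of these, 253 CNT and 258 3CK cells fell in neither cell group. About 8300 cells were loaded per library, per the labels.

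UMIs were summed over the cells of a group and divided by their total, with Python 3.11.15, numpy 2.4.6 and scipy 1.17.1. Intervals of levels are exact Poisson intervals. Those of ratios come from the exact binomial (Clopper-Pearson) interval of a gene's 3CK UMIs among its UMIs in both libraries, and shares of cells were treated the same way. A share of 0 is given with the limit of 3 counts of the total. No p-value was computed. Calculations were tested on simulated data. Beside the 8 genes, those with the highest level, the largest and the smallest epithelial log2 ratio among members with at least 1 CPM were named from each of 5 lists, with the 5 genes most like the summed enzymes across cells (Pearson r, genes of at least 20 CPM, cells of at least 10000 UMIs). Some genes selected in this way are not reported. SREBF2, INSIG2, FADS1, SCD, FASN, ACACA, TM7SF2, GPR183, STARD4, TYROBP, PTPRC, COL1A1, VIM, DCN, KRT8, KRT18, ATF3 and DDIT3 were named after their values were seen. The genes most like CH25H were not sought, since it had no UMI in mesenchymal cells.

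The results were recomputed without removing doublets, without a filter, with at least 1000 genes and at most 10% mitochondrial UMIs, and with TMM factors (edgeR 4.0.16 in R 4.3.3), median-of-ratios factors, a mean over cells, cells of 50000 to 100000 UMIs, looser and stricter thresholds for the cell groups, and, added after the data were seen, mesenchymal and epithelial cells without leukocyte markers. Promoter windows of 300 bases were read from RefSeq.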

Additional observations from a re-analysis of the deposited data

Results flagged for a closer look

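The pathway genes beside the 8 were 16 of synthesis, 10 of sterol sensing, 12 of uptake, 15 of efflux and oxysterols and 8 of fatty acid synthesis. Of these, 13 had a counting interval on opposite sides of 0 in the 2 cell groups. Among all genes, 39.5% had an interval below 0 and 39.8% above in epithelial cells, and 38.6% and 20.3% in mesenchymal cells. The share of all genes on opposite sides was not counted, so the 13 have no background beside them. They cannot be called particular to these pathways. Each cell group rests on 1 library per condition, so the difference between cell groups was not tested across samples. With TMM factors 9 of the 13 kept intervals on opposite sides of 0, and with median-of-ratios factors also 9.

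Cholesterol synthesis genes made up 7 of the 13, all of them also among these 9 and all lower in 3CK in epithelial cells and higher in mesenchymal cells. Of the early pathway, the log2 ratio of 3CK to CNT was -0.80 in epithelial and 0.28 in mesenchymal cells for ACAT2, -0.49 and 0.21 for PMVK, -0.69 and 0.58 for MVD, and -0.11 and 0.19 for FDPS. Of the late pathway, it was -1.51 and 0.58 for TM7SF2, -0.56 and 0.61 for NSDHL, and -0.58 and 0.27 for ERG28.

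AUP1, of the sterol-sensing machinery, had -0.42 in epithelial and 0.32 in mesenchymal cells, and the lysosomal carrier NPC2 had -0.46 and 0.19, both among the 9. The other direction, higher in 3CK in epithelial cells and lower in mesenchymal cells, was seen at the scaling by total UMIs alone, for UBE2G2 (0.12 and -0.27), the lysosomal transporter NPC1 (0.26 and -0.35), the esterifying enzyme SOAT1 (0.18 and -0.21) and ACSL3 (0.19 and -0.30). The mesenchymal intervals of these 4 genes held 0 with either set of scaling factors. None of the 7 measured genes of the set was among the 13, but FDFT1 and LSS met the same rule with both TMM and median-of-ratios factors.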

How the results depend on the processing

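With 1 library per group no alternative bears on variation between cultures, and counting error limits CH25H, whose mesenchymal ratio could be formed in no setting. No paired analysis was possible because each group has 1 library. Over 10 alternatives the median log2 ratio of the 6 enzymes ran from -1.25 to -1.14 in epithelial cells and from -0.23 to 0.03 in mesenchymal cells, and that of INSIG1 in epithelial cells from -1.55 to -1.47. The mesenchymal median was above 0 with these scaling factors alone, TMM (0.01) and median-of-ratios (0.03). IDI1 in mesenchymal cells turned sign with TMM factors (0.0106) and median-of-ratios factors (0.0271). In mesenchymal cells of 50000 to 100000 UMIs, DHCR7 was at -0.98 and INSIG1 at -0.76. For these the cause was not tested. Of the values of the 6 single enzymes under the alternatives, 54 epithelial ones stayed within their counting interval and 6 moved beyond it, with none reversed. INSIG1 in epithelial cells, counted apart, stayed within its interval under all 10. In mesenchymal cells, with INSIG1 included, 62 stayed, 6 moved and 2 reversed, where reversed means a changed sign of a value whose interval did not hold 0. Without that condition 5 of 70 mesenchymal values took the other sign: IDI1 and DHCR7 with both sets of scaling factors, and FDFT1 without the cells that carried leukocyte markers.

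The counts of genes past 2-fold follow the genes tested. In epithelial cells 4245 were lower (15.9%) and 2698 higher (10.1%) over every gene with more than 3 UMIs, and 746 (7.62%) and 771 (7.88%) over genes of at least 10 CPM. In mesenchymal cells 985 were lower (9.59%) and 493 higher (4.80%) at 10 CPM.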

Other observations

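The receptor for the oxysterol that follows from CH25H, GPR183, was measured in mesenchymal cells although CH25H was not. It was at 18.5 CPM in CNT (364 UMIs) and 0.99 CPM in 3CK (9 UMIs), a log2 ratio of -4.23 (counting interval -5.37 to -3.29). HSD3B7 was higher in 3CK in mesenchymal cells too, at 4.78 and 12.5 CPM (1.39). STARD4, a carrier that moves cholesterol within cells and is itself an SREBP target, was higher in 3CK in both cell groups: 13.5 and 17.8 CPM in epithelial cells (0.40, interval 0.28 to 0.52), and 9.06 and 17.1 CPM in mesenchymal cells (0.92, interval 0.60 to 1.24). MYLIP was lower in 3CK in both cell groups, with -1.42 in mesenchymal cells (28.5 and 10.6 CPM).

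Cells that met neither threshold (253 in CNT, 258 in 3CK) had log2 ratios of -1.37 for HMGCS1, -0.96 for LSS, -0.63 for IDI1, -0.57 for INSIG1, -0.49 for DHCR7, -0.47 for SQLE and -0.30 for FDFT1. Among the barcodes that the filters removed, FDFT1 was higher in 3CK, at 39.3 and 54.2 CPM (0.46, interval 0.13 to 0.80), while HMGCS1 was lower there (-1.15). Over all kept cells the ratios were -1.51 for DHCR7, -1.30 for INSIG1, -1.23 for SQLE, -1.18 for IDI1, -1.01 for HMGCS1, -0.68 for LSS and -0.49 for FDFT1.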
